A study of Zea mays with 38 samples.

Results

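From the 13339 spotted features that were measured on all 19 slides of the study and are absent from the platform's gene table, 150 were taken as a set of features raised by UV-B at 2, 8 and 12 h. For each slide, log2(UV/control) was formed from the deposited intensities and centred on the slide's median, and per time the mean of the slides with UV leaves in Cy5 was averaged with that of the slides with UV leaves in Cy3. The 150 features with the largest minimum over 2, 8 and 12 h form the set. The values at those 3 times therefore chose the members and are given below as a description, with no test. Values at 1 h and 4 h and the control leaves of those times were not used by that choice.

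The study irradiated leaves of maize (Zea mays) seedlings with UV-B for 1, 2, 4, 8 or 12 h and kept control plants for each time. The labels name the inbred line B73 for the samples of 1 h and 2 h and name no line for the later samples. Each 2-colour cDNA slide carried 1 UV and 1 control sample of the same time, with UV leaves in Cy5 on slides a and b and in Cy3 on slides c and d. There were 4 slides a time and 3 at 2 h, where slide b was not analysed here, which gives 38 samples in 10 groups. Separate plants for each slide are not stated in the labels, so p-values measure only the spread between slides. In leaf RNA, fewer cells of a type and less RNA per cell cannot be told apart.

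UV-B is the short-wave part of sunlight that reaches the ground, and it damages DNA, RNA and proteins. Plants sense it with a dedicated photoreceptor, known from Arabidopsis, that switches on genes for flavonoid sunscreens and for DNA repair. Stronger doses also switch on stress and defence genes that wounding and pathogens share. A cDNA slide of this kind holds amplified clones, each known by its expressed sequence tag (EST), a single read of a cDNA clone. A spot can bind transcripts of several genes of one family, so a feature is not always 1 gene.

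Of the 150 members, 149 carried an EST accession as their identifier and 1 was a specially named spot whose label begins with MRP46. None was found in the RefSeq gene table, so no gene name or role is given to any of them. Each was a single spot on the slide. All 150 had a mean log2 intensity above 16.76, that of the brightest of 8 foreign spots, which carry transgene or non-plant sequence. The channels held 18795 to 20158 spots each, with median intensities from 138059 to 626914. Of the leaf marker features listed for the tissue, 15 of 19 lay above the brightest foreign spot, and of the features for other maize tissues, 4 of 6 did. The features were matched by symbol, and 1 of the 15, BQ295564 (PDK1/pdlk1), lay just above it at 16.77 and may not be the leaf gene pdk1.

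The slides were not alike in which spots were bright. Slides b, c and d of 4 h and slide d of 2 h stood apart. Their spot brightness, the mean log2 intensity of both channels, correlated across 14234 features at r between 0.89 and 0.95 among themselves. With the other 15 slides they reached r between 0.65 and 0.83, and those 15 slides had r between 0.74 and 0.95 among themselves. These correlations are across features, which are not independent replicates. On these 4 slides, 650 of the 14234 features (4.57%) were more than 2 log2 units dimmer than on the others, among them 5 members. The values at 4 h rest on these slides and are given below with and without them.

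At the 3 times that chose them, the members had median changes of 0.66 at 2 h, 0.75 at 8 h and 0.48 at 12 h on the median-centred log2 scale. These are folds of 1.58, 1.68 and 1.39. The medians over all 14304 features measured on every slide were -0.003, 0.05 and 0.02 at these times. The largest of the 3 changes was at 8 h in 78 members, at 2 h in 61 and at 12 h in 11. The smallest was at 12 h in 101 members, so 12 h set the minimum for most of them.

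The minimum exceeded 2-fold in 5 members, namely AW331178 (2.48-fold), AI665509 (2.46-fold), AI737126 (2.14-fold), BQ635512 (2.14-fold) and AW574456 (2.03-fold). AW331178 had log2(UV/control) of 1.47, 1.26 and 1.04 on slides a, c and d of 2 h, of 2.17, 1.93, 1.19 and 1.43 on slides a to d of 8 h, and of 1.75, 1.83, 1.29 and 1.60 on those of 12 h. AI665509 had 1.57, 0.88 and 1.18 at 2 h, 2.91, 2.65, 1.53 and 0.63 at 8 h, and 0.62, 2.56, 2.14 and 2.26 at 12 h. Both were above 0 on all 11 slides of these times, AW331178 evenly so, while AI665509 had 1 low slide at 8 h and another at 12 h. BQ635512 kept a narrower range, 0.83 to 1.19 at 2 h, 0.86 to 1.66 at 8 h and 0.84 to 1.49 at 12 h. AW574456 had values of 0.61 to 1.49 at 2 h, then 1.32 to 2.30 at 8 h, and 0.89 to 2.02 at 12 h. AI737126 was the exception among the first 12, with -0.23 on slide a of 12 h against 1.47 to 1.63 on the other 3 slides. On that slide its spot was dim, with a mean log2 intensity of 17.5 beside 19.9 to 20.3 on the other slides of 12 h, and the spot of AI665509 had 13.8 beside 19.9 to 20.1. Both spots were also dim on slide d of 1 h, at 17.9 and 14.8, and the part of dimness in these values was not tested.

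The next members in rank were BQ293384 with a minimum of 0.96, the MRP46 spot with 0.81, AW331475 with 0.76, BE128916 with 0.72, AW331168 with 0.70, AI770841 with 0.70 and AW330934 with 0.70. In the plot of the first 12 by slide, slide b of 1 h reaches the values of the 3 times of the rule for most of them, with a median of 0.97 and a highest value of 1.42. On slides a, c and d of 1 h their medians were -0.05, -0.47 and -0.37. The slides of 4 h spread widely.

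**Figure D1:**
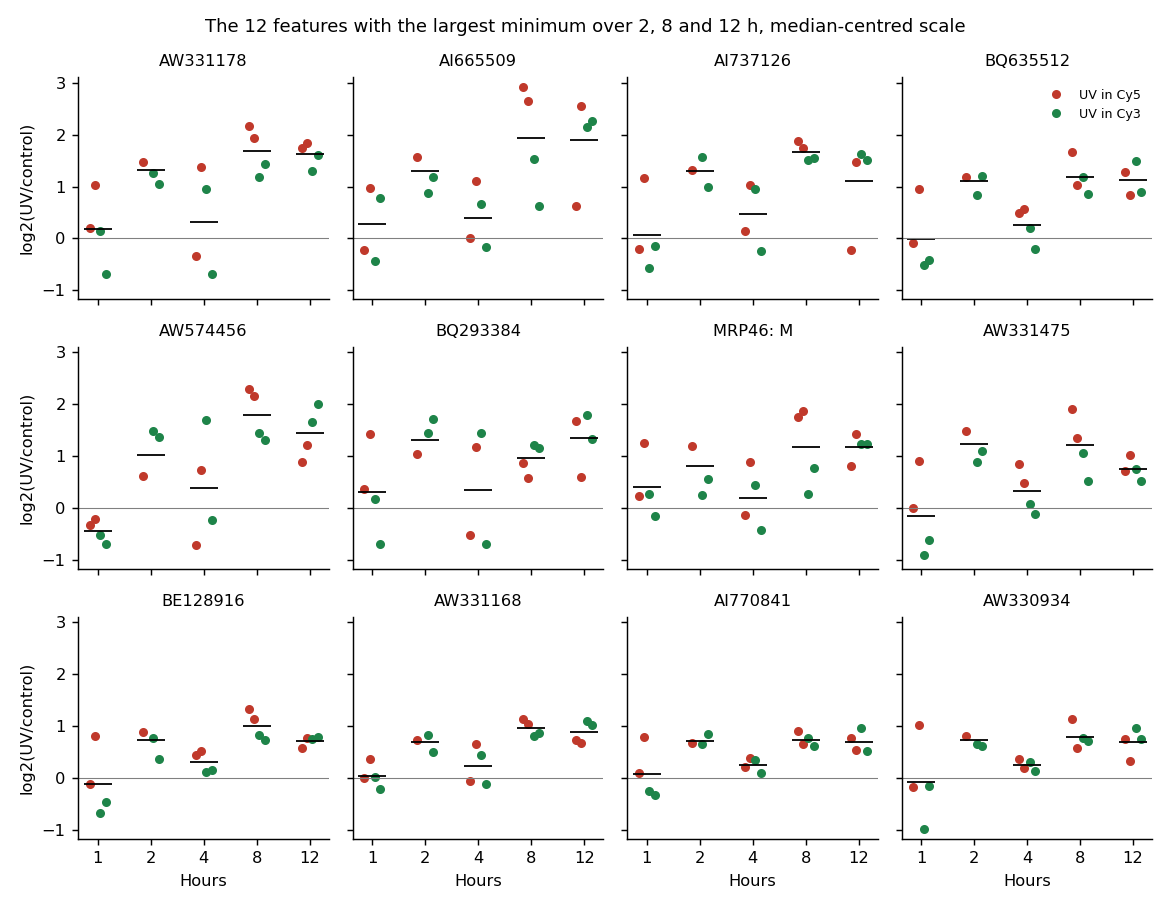
log2(UV/control) on the median-centred scale (vertical axes) of the 12 features with the largest minimum over 2, 8 and 12 h, by hours of treatment. Points are slides, coloured by the dye of the UV sample, and the bar is the mean over both dyes. AW331178 was above 1 on all 11 slides of 2, 8 and 12 h and ran from -0.69 to 1.38 at 4 h.

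At the limit of the set the values ran on without a gap. The last 5 members, AW066119, AW287787, AW400322, AI586570 and AW313159, had minima from 0.39 down to 0.38. The first 5 features outside it, AI770359, AI664909, BQ172591, AI396476 and BQ034787, had minima of 0.38. The change was above 0 on all 11 slides of 2, 8 and 12 h in 133 members. Over all 14304 features this share was 4.04%, and since the rule used these slides, nothing is read from the difference. After loess the count was 108, beside 4.4% of all features, and again nothing is read from it. Of the remaining members, 14 were above 0 on 10 slides, 2 on 9 and 1 on 8.

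The members were not spread evenly over brightness, and the part of brightness in the choice was not tested. On the median-centred scale the ratio moved with a feature's brightness. At 8 h the median of all features ran from -1.03 in the dimmest of 5 bins of equal size to 0.35 in the brightest, and at 2 h from -0.79 to 0.32. At 12 h, which set the minimum for 101 members, it ran the other way, from 0.17 to -0.12. The members lay mostly among bright features: 58 were in the brightest bin, 63 in the next, 28 in the middle bin, 1 in the bin below it and 0 in the dimmest. Their median brightness percentile was 74.6, with a range from 38.6 (AW155662) to 97.2 (AI670601). After background correction and loess normalisation within slides, which removes a trend with brightness, the medians of the bins lay between -0.08 and 0.04 at all times.

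On that loess scale all 150 members were above 0 at 2, 8 and 12 h, beside 47.9%, 49.3% and 48.4% of all features. The same slides chose the members, so nothing is read from the difference. The members' medians were 0.50, 0.54 and 0.56, and the largest change was at 12 h in 75 members, at 2 h in 45 and at 8 h in 30. The order of the times within the set thus changed with the normalisation. The same rule applied to loess values would have kept 79 of the 150, and the members' median rank on it was 132.5. The lowest rank on it was 222 among the 12 leading features and 2521 over the set. In the series matrix, which holds the authors' processed values on a scale not stated, the members' medians were 0.36, 0.37 and 0.39 at 2, 8 and 12 h.

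**Figure D2:**
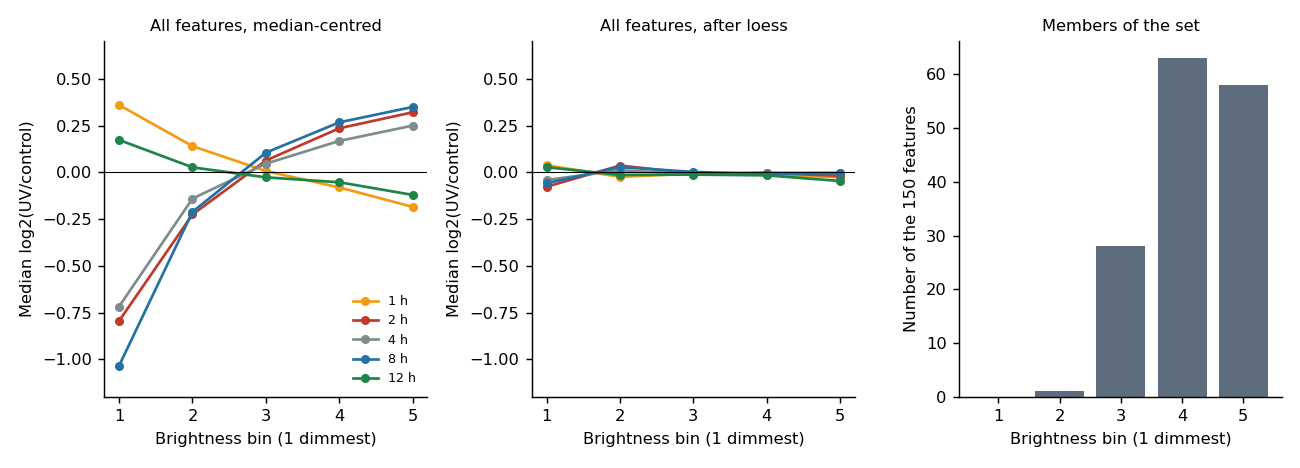
Left and middle, median log2(UV/control) of all features in 5 bins of brightness (horizontal axes, 1 is dimmest) at each time, on the median-centred scale and after loess. Right, the number of the 150 features in each bin. The trend from -1.03 to 0.35 at 8 h is absent after loess, and the 2 brightest bins hold 63 and 58 of the 150 features.

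At 1 h the members' median change was small as a mean over slides that differed among themselves. On the median-centred scale it was 0.04, with 85 of 150 above 0 beside 54.5% of all features. All features of the brightest bin and the next had medians of -0.18 and -0.08 on that scale, and the part of brightness was not tested. On the loess scale the members' median was 0.11, with 111 of 150 above 0 beside 48.2% of all features. The limma test at 1 h called 0 of the 150 members at an adjusted p under 0.05, and 0.0% of the 20024 features tested. At an unadjusted p under 0.05 there were 35 members (23.3%), of which 32 were higher and 3 lower in UV leaves, beside 7.81% of all features tested. The smallest adjusted p of a member was 0.415, so none of these passed. The spread in this test came from all 19 slides, 11 of which chose the members. On the 8 slides of 1 h and 4 h alone, 19 members reached that unadjusted p, beside 1095 of the 20024 features. In the fit over all times, leaving out slide b of 1 h gave 11 members at that unadjusted p, beside 1104 of the 20024 features.

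The slides of 1 h differed. The members' medians on slides a to d were 0.02, 0.62, -0.31 and -0.17 on the median-centred scale, and 0.17, 0.37, 0.04 and -0.06 after loess. Slide b was the high one on both scales. Without it the members' median at 1 h turned to -0.12 on the median-centred scale, with 30.0% above 0, and without slide a it was 0.19, with 76.7% above 0. Without slide d it was -0.03, and without slide c 0.06. Above 0 on all 4 slides of 1 h were 10 members on the median-centred scale, beside 4.98% of all features, and 38 after loess, beside 7.1%. Below 0 on all 4 slides were 8 members on the median-centred scale, beside 7.78%, and 7 after loess, beside 6.03%.

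Among single members at 1 h, the smallest p on the higher side belonged to AI491357. Its loess values on slides a to d were 0.57, 0.92, 0.55 and 0.47, and its change was 0.63 ± 0.15 (limma SE, n = 4 slides, adjusted p = 0.415). All 4 slides were above 0 and close to its level at 2, 8 and 12 h, where its loess means lay between 0.61 and 0.86. BQ035049 (0.48 ± 0.13), AI619398 (0.39 ± 0.11), AI670245 (0.77 ± 0.22) and AI820206 (0.53 ± 0.16) came next, with limma adjusted p from 0.479 to 0.510. AI670245 had the highest value at 1 h on the median-centred scale too, 0.69, and there it rested on slide c with 1.76 beside 0.34, 0.77 and -0.10.

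The lowest members at 1 h were BE056118 and AI621990, both at -0.49 on the median-centred scale, and AI734472 at -0.47. AI621990 was below 0 on every slide of 1 h after loess, at -0.31, -0.28, -0.48 and -0.58, and its change of -0.41 ± 0.11 had a limma adjusted p of 0.486. AI734472 had loess values of -0.04, -1.06, -0.35 and -0.32, and on slide b, its lowest, its spot had a mean log2 intensity of 12.3 beside 18.9 or more on every other slide. Of the 150 members, 148 were lower at 1 h than at each of 2, 8 and 12 h on the median-centred scale, and 138 after loess. The rule favours high values at those times, so this count is a description.

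**Figure D3:**
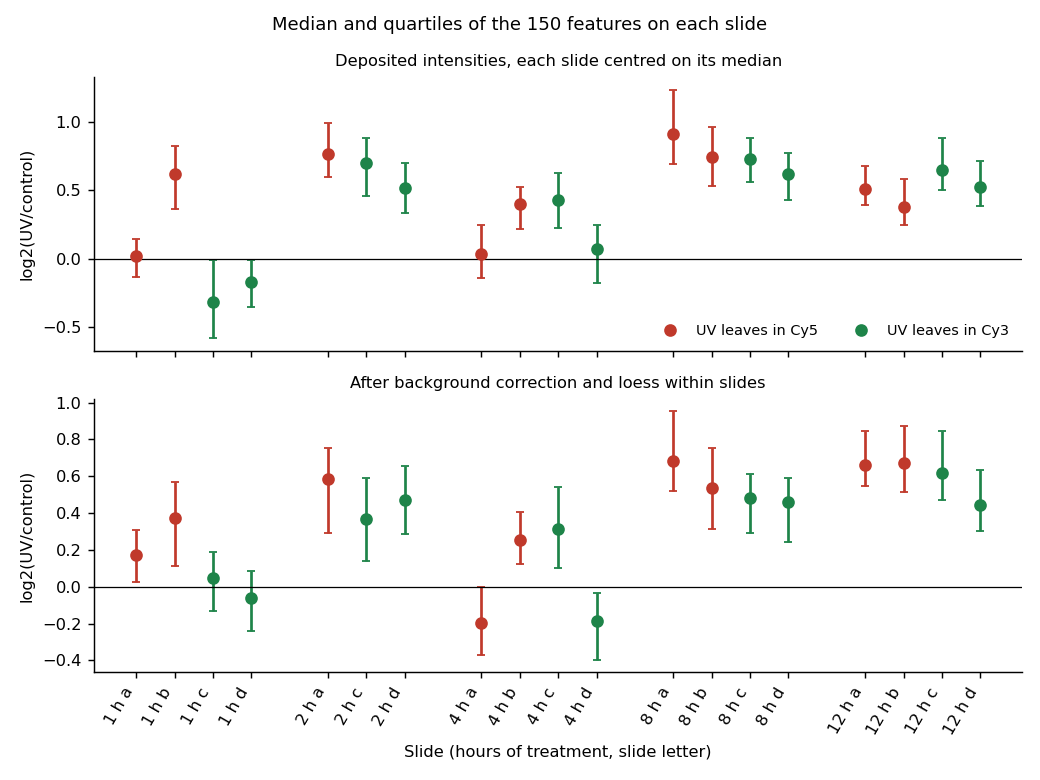
Median of the 150 features on each of 19 slides (points) with quartiles (bars), as log2(UV/control) on the median-centred scale (top) and after loess (bottom), coloured by the dye of the UV sample. All 11 slides of 2, 8 and 12 h have medians from 0.38 to 0.91 in the top panel, and at 4 h slides b and c lie above slides a and d in both panels.

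At 4 h the median change was 0.24 on the median-centred scale, with 136 of 150 above 0 beside 53.5% of all features. After loess it was 0.05, with 105 of 150 above 0 beside 48.5%. On the median-centred scale all features of the brightest bin and the next, which held 58 and 63 members, had medians of 0.25 and 0.17. The part of brightness in the members' median was not tested. The limma test called 0 of the 150 members and 0.0% of the 20024 features. At an unadjusted p under 0.05 there were 4 members (2.67%), all higher, beside 4.85% of all features. On the slides of 1 h and 4 h alone there were 3, beside 895 of the 20024 features. In 144 members the change at 4 h was below that at each of 2, 8 and 12 h on the median-centred scale, and in 143 after loess. As at 1 h, the rule favours high values at those 3 times, so these counts are a description.

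A mean near 0 at 4 h did not stand for slides near 0. After loess the members' medians on slides a to d of 4 h were -0.20, 0.26, 0.32 and -0.19. Slides b and c held the members up and slides a and d held them down, with 1 slide of each dye orientation on either side. In 72 members slides b and c were above 0 and slides a and d below 0 on the loess scale, beside 7.0% of all features. The opposite pattern was seen in 1 member, beside 7.04% of all features. On the median-centred scale the counts were 30 members beside 3.42%, and 0 members beside 3.43%. Slides b and c both lay above slides a and d in 87 members on the median-centred scale, beside 19.7% of all features, and in 104 after loess, beside 16.0%. Above 0 on all 4 slides of 4 h were 51 members on the median-centred scale, beside 16.8%, and 3 after loess, beside 4.03%. Below 0 on all 4 was 1 member on each scale, beside 17.9% and 4.71%. This split was looked for after the values were seen. By spot brightness, slide d goes with b and c. Whether slides of 4 h share RNA is not stated in the labels.

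The split was plain in several leading members. AW331178 had -0.33, 1.38, 0.95 and -0.69 on slides a to d of 4 h, BQ293384 had -0.51, 1.18, 1.45 and -0.70, and AW574456 had -0.70, 0.74, 1.70 and -0.22, all on the median-centred scale. On slides b and c these 3 reached values seen at 2, 8 and 12 h, and on slides a and d they were below 0. After loess, 11 of the first 12 members were above 0 on slide b and 11 on slide c, beside 4 on slide a and 0 on slide d. Across the 150 members, the r of the loess values of slides a to d with the members' mean over 2, 8 and 12 h was -0.14, 0.47, 0.54 and -0.30. Over all 14234 features it was 0.13, 0.29, 0.14 and -0.06, and on the median-centred scale over all 14304 features it was 0.60, 0.48, 0.52 and 0.61. The order of the slides thus differed with the features and the scale. For the slides of 1 h the members' r after loess lay between -0.20 and 0.14. The slides compared here share no library, and members are not independent replicates and were chosen on that mean, so no p is given.

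**Figure D4:**
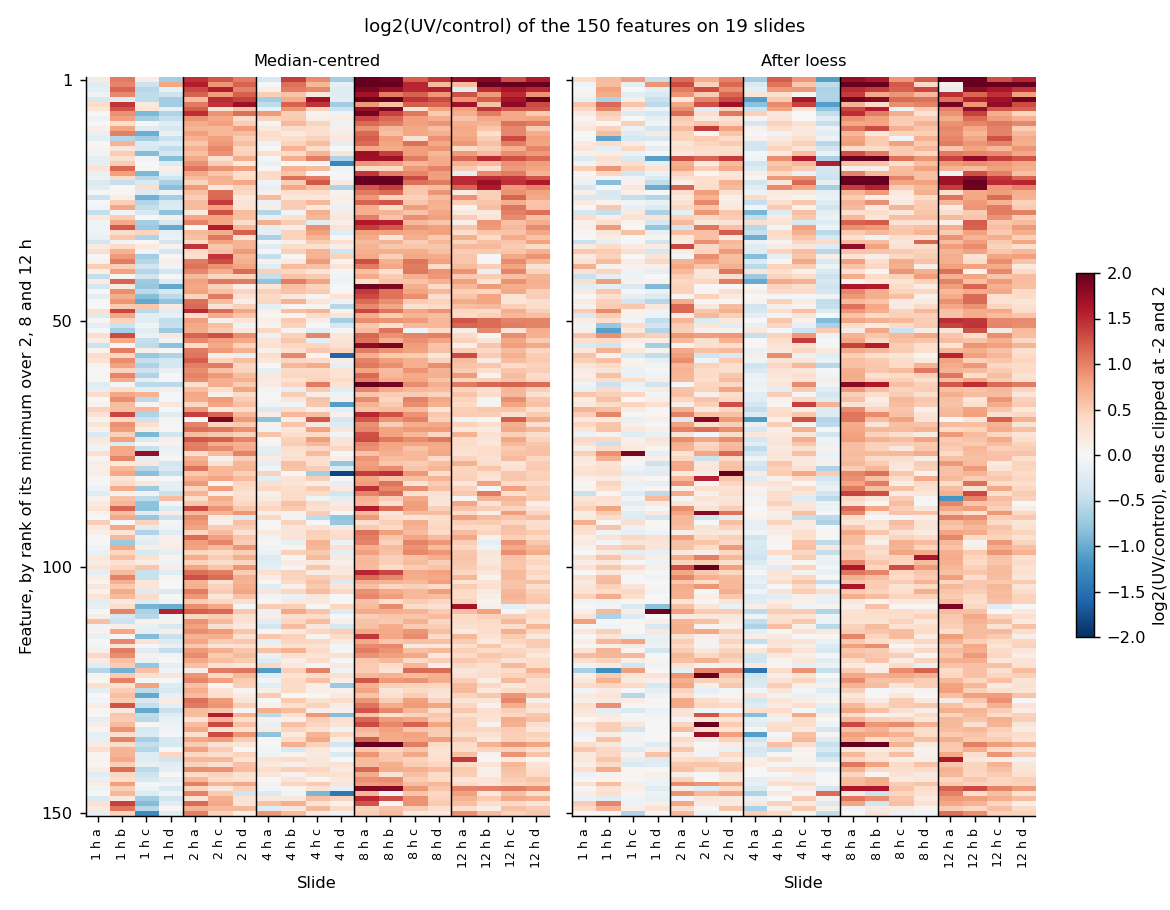
log2(UV/control) of the 150 features (rows, in order of their minimum over 2, 8 and 12 h) on 19 slides (columns, grouped by time), on the median-centred scale (left) and after loess (right), with colours clipped at -2 and 2. After loess, slides a and d of 4 h are mostly below 0 (38 and 28 members above 0) and slides b and c mostly above (131 and 134).

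Without the 4 slides whose spot brightness stood apart, 4 h kept only slide a. On that slide the members' median was 0.04 on the median-centred scale, with 58.0% above 0 beside 50.7% of all features. After loess it was -0.20, with 25.3% above 0 beside 48.2%. With a lone slide at 4 h, no limma call is read there. The members with the smallest p at 4 h were AW224859 (0.60 ± 0.20, limma adjusted p = 0.808) and AW216063 (0.44 ± 0.17, limma adjusted p = 0.860). On the median-centred scale the same features were among the 5 lowest at 4 h, at -0.35 and -0.17. Both were more than 2 log2 units dimmer on slides b, c and d of 4 h than on slide a, and their direction depended on the normalisation. The highest at 4 h on the median-centred scale were AW461049 (0.62), AW287770 (0.48), AI737126 (0.47), AW287785 (0.46) and AI820169 (0.43), and none passed the test.

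The difference between 4 h and 1 h was tested as a contrast of its own. The limma test called 0 of the 150 members and 0.0% of the 20024 features. At an unadjusted p under 0.05 there were 13 members, 4 higher and 9 lower at 4 h, beside 6.44% of all features. On the slides of 1 h and 4 h alone there were 8, beside 1060 of the 20024 features. On the loess scale 55 members were higher at 4 h than at 1 h, beside 49.8% of all features tested. On the median-centred scale 118 were, and no share over all features was formed there. All features of the brightest bin and the next had median-centred medians of -0.18 and -0.08 at 1 h and of 0.25 and 0.17 at 4 h. After loess these medians lay between -0.03 and -0.002. The count of members thus changed with the normalisation, and the part of brightness was not tested. AI621990 (0.53 ± 0.16, limma adjusted p = 0.677) and AI619398 (-0.52 ± 0.16, limma adjusted p = 0.677) had the smallest p in each direction. AI619398 lay at 0.47, 0.74, 0.34 and 0.01 at 1 h and at -0.27, -0.23, 0.13 and -0.15 at 4 h on the loess scale, with 1 slide of 4 h above the lowest of 1 h.

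The members' median normalised log2 level in control leaves was 19.18 at 1 h, 19.15 at 2 h, 19.22 at 4 h, 19.12 at 8 h and 19.12 at 12 h. Member by member, the median change of the control level from 1 h was -0.18 at 2 h, 0.03 at 4 h, -0.12 at 8 h and 0.04 at 12 h, beside -0.01, 0.05, 0.07 and 0.08 over all features. At 2 h 43 of the 150 were above their control level of 1 h and at 8 h 58, beside 49.0% and 56.2% of all features. A low control raises the ratio that chose the members at 2 h and 8 h, so this is a description. In UV leaves the median level was 19.29, 19.49, 19.25, 19.65 and 19.83. Over slides, the control medians ran from 18.94 to 19.45, and the UV medians at 8 h (19.56 to 19.62) and 12 h (19.77 to 20.02) lay above all of them. So did the UV medians of slides a and d of 2 h (19.51 and 19.52), slide a of 1 h (19.50) and slide b of 4 h (19.48). The ratio at 2, 8 and 12 h chose the members, so the separation of the channels at those times is a description.

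Between 1 h and 4 h the control leaves were tested with limma's separate-channel fit. It called 18 of the 150 members, 4 higher and 14 lower at 4 h, beside 13.7% of the 14234 features tested (6.17% higher and 7.53% lower). The lowest was BE129916, with control levels of 20.38, 20.37, 20.50 and 20.56 on slides a to d of 1 h and of 19.80, 15.27, 14.17 and 13.20 on those of 4 h. Its change was -4.84 ± 1.10 (limma adjusted p = 0.00949). Slide a of 4 h stayed close to the level of 1 h, and slides b, c and d were far below.

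The UV channel of the same spot moved with the control channel. In UV leaves BE129916 had 19.96, 15.77, 14.92 and 13.69 on slides a to d of 4 h, and on slide d of 2 h both channels were low, at 12.21 in control and 14.70 in UV leaves. At 8 h and 12 h both channels were back between 19.10 and 20.97. AW224859 (-3.14 ± 0.67), AW216063 (-2.16 ± 0.56), AW216330 (-2.16 ± 0.62) and AW066119 (-2.50 ± 0.79) were low on the same 4 slides, with limma adjusted p from 0.00935 to 0.0332. AI670542 (-2.57 ± 0.75, limma adjusted p = 0.0234) differed from them, since it was lowest at 4 h on slide a and varied at 8 h and 12 h too.

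Without the 4 slides, the control leaves of 4 h kept only slide a, so no limma call is read there. AI670542 then had a change of -3.73 and BE129916 of -0.55. AW224859, AW216063, AW216330 and AW066119 had changes of 0.25, 0.49, 0.61 and 1.17. Leaving out 1 slide at a time gave 37 calls without slide a of 4 h, 4 without slide b, 4 without slide c and 1 without slide d. Over all 14234 features these calls numbered 3775, 360, 341 and 365. Without slide b of 1 h there were 6 members called, beside 989 features, and without slide c 5, beside 897. The members higher in control leaves at 4 h were BQ034558 (1.51 ± 0.48), AI665055 (1.43 ± 0.33), AI820299 (0.93 ± 0.32) and BQ048066 (0.75 ± 0.24). Their limma adjusted p were 0.0363, 0.00966, 0.049994 and 0.0360. Without the 4 slides their changes were 0.64, 0.96, 1.56 and 0.12. BQ034558 had 18.33 to 18.72 at 1 h and 19.18, 20.43, 20.07 and 20.40 on slides a to d of 4 h, again with slide a nearest to 1 h.

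**Figure D5:**
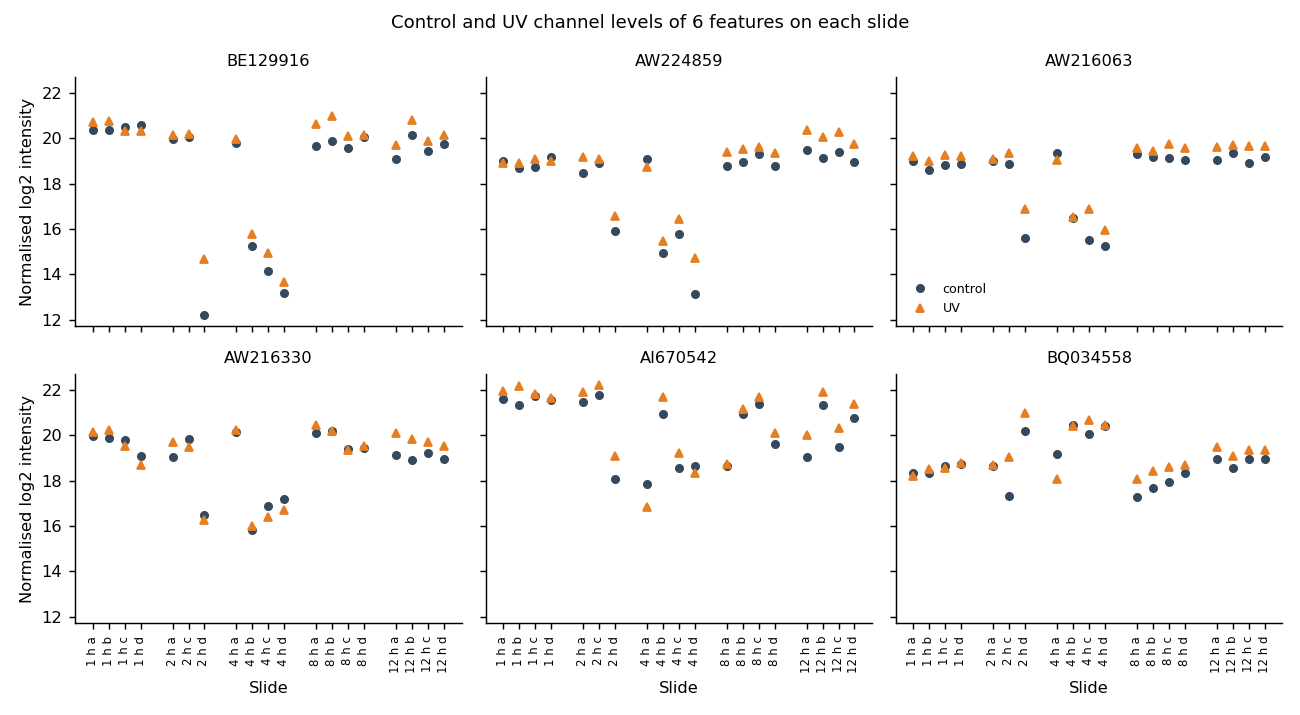
Normalised log2 intensity of 6 features in control (circles) and UV (triangles) leaves on each of 19 slides. BE129916, AW224859, AW216063 and AW216330 are low in both channels on slide d of 2 h and slides b, c and d of 4 h; AI670542 varies on other slides, and BQ034558 is high on those 4.

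The difference between slides with UV leaves in Cy5 and in Cy3 was fitted over all 19 slides, 11 of which chose the members, so its counts are a description. It passed limma's adjusted p under 0.05 in 27 of the 150, beside 22.7% of all features. Of these, 24 were higher with UV in Cy5, beside 9.07%, and 3 lower, beside 13.6%, and nothing is read from the contrast. On the 8 slides of 1 h and 4 h, which the rule did not use, limma called 0 of the 150 members, beside 1.45% of all features (0.125% higher and 1.32% lower). At an unadjusted p under 0.05 there were 16 members on those slides, beside 20.7%. AW453089 had a dye difference of 0.62 ± 0.10 over all slides and of 0.63 on those 8 (limma adjusted p = 0.157). AW331475, the eighth member in rank, had 0.60 ± 0.12 and 0.62 (limma adjusted p = 0.107), and AW424453 had 0.66 ± 0.13 and 0.71 (limma adjusted p = 0.128). On the lower side AI619118 had -0.78 ± 0.25 and -1.06, AW216063 had -0.48 ± 0.15 and -0.63, and BE025390 had -0.47 ± 0.15 and -0.49, with limma adjusted p on the 8 slides from 0.239 to 0.359. The rule gave both orientations equal weight. A plain mean over slides would have kept 139 of the 150.

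Across the 150 members on the median-centred scale, the r between slides of 8 h was 0.26 to 0.90, between those of 12 h 0.24 to 0.78, and between those of 2 h 0.03 to 0.44. Between slides of 8 h and 12 h the median r was 0.50, and between those of 2 h and 12 h it was 0.12. Over all 14304 features these medians were -0.13 and -0.08. Their median r was 0.81 within 8 h, 0.19 within 12 h and 0.57 between 2 h and 8 h. After loess the medians within 8 h and within 12 h were 0.37 and 0.36 over the members and 0.24 and 0.27 over all 14234 features. Between 8 h and 12 h they were 0.41 and 0.09, and between 2 h and 12 h 0.08 and 0.10. The rule used these slides, so nothing is read from the differences. Across the members on the median-centred scale, the r within 1 h ran from -0.13 to 0.39 and within 4 h from -0.48 to 0.30. These r are a description over features chosen for high values, and slides of 1 dye orientation share dye effects.

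Beside brightness, with 139 of the 150 above the median of all features, position and identifier were compared. The slide is printed in 12 by 4 blocks. Columns 2 and 4 of the blocks held 51 and 46 members, 1.45% and 1.47% of their features measured on all slides, and columns 1 and 3 held 27 and 26 (0.679% and 0.710%). Among rows of blocks the share ran from 0.105% in row 12 to 2.24% in row 9. Of the members, 40 had another member on an adjoining spot. No share over all features was formed for this count, so nothing is read from it. The 749 other features on adjoining spots had medians of 0.18 at 2 h, 0.21 at 8 h and 0.02 at 12 h on the median-centred scale, and the 740 of them tested after loess had 0.04, 0.03 and 0.01.

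A run of neighbouring accessions stood out, chosen after the values were seen. Between AW287758 and AW287800, 17 features were measured on all slides, and 7 of them were members: AW287758, AW287770, AW287782, AW287783, AW287785, AW287787 and AW287800. They lay in 5 blocks, each in row 22 of its block, a row that held 16 members or 3.21% of its features. In the whole accession series AW287, 7 of 27 unlisted features (25.9%) were members, beside 1.12% of all unlisted features. Of the 17 features of the run, 14 were above 0 at 2, 8 and 12 h on the median-centred scale and 12 after loess. The 7 members are among them on both scales, on the first through the rule, so these counts are a description.

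AW287785 had the largest mean change of any member at 8 h. On slides a to d it had 3.11, 2.96, 1.10 and 1.04 at 8 h, and 1.50, 1.71, 1.45 and 1.60 at 12 h. At 1 h it was below 0 on all 4 slides, at -0.28, -0.46, -0.28 and -0.65. At 8 h the slides with UV in Cy5 were far above those with UV in Cy3, and at 12 h they were level. The 7 members of the run had means of 0.73 to 2.05 at 8 h, and of -0.42 to -0.09 at 1 h. A shorter run from AI667766 to AI667816 held 4 members among 14 features.

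The MRP46 spot is the only member without an accession. It had 1.20, 0.27 and 0.57 on slides a, c and d of 2 h, 1.76, 1.88, 0.27 and 0.78 on slides a to d of 8 h, and 0.82, 1.44, 1.24 and 1.24 on those of 12 h. It was above 0 on all 11 slides, lowest on slide c at both 2 h and 8 h. The other 4 spots with labels of this form, MRP15, MRP40, MRP47 and MRP89, had means between -1.82 and -0.66 at 8 h, and between 0.13 and 0.29 at 12 h.

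Among features that the platform table does name, 26 of 852 with an informative name (3.05%) had a minimum over 2, 8 and 12 h at or above that of the last member. The largest belonged to AI739985, a feature of RGP, a reversibly glycosylated polypeptide of cell wall synthesis (1.52), and to BE056094, a chitinase, a defence enzyme that cuts the chitin of fungal walls (1.21). Next came AI978227, the peroxidase PER42 (1.07), AI979621, the cell-death suppressor lls1 (1.00), AW352520, the protein disulfide isomerase pdi2 (0.97), and BQ528117, the chaperone calnexin (0.83). AI737911, also calnexin, had 0.79, AW927656, also pdi2, had 0.67, AW065225, the proton pump gene mha4, had 0.61, and AW282358, the oxophytodienoate reductase opr1, had 0.58. AI668454, the transporter gene lpa1, and AI714634, the ribosomal protein gene rpl17, had 0.56 each. Their changes at 4 h were lower on the same scale, between 0.09 and 0.55. They serve here as a measure of size for the unnamed members, and no shared function is read from it.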

How the data were processed

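Leaf RNA of 38 samples in 10 groups was compared on 19 slides. Each deposited file holds a linear intensity for every spot, which per the labels came from TIGR Spotfinder. No source used here states how background was treated. Values of the series matrix are the authors' own processed score, of unknown scale and centring, and served only as an alternative. 0 columns stayed without a sample.

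The members were chosen from the intensities as deposited. For tests, intensities were corrected by normexp (offset 50) and normalised within slides by loess (span 0.3) in limma 3.58.1 (R 4.3.3). A total of 110 control or foreign spots were left out, and the MRP spots were kept. Features measured on at least 2 slides of each time were tested, 20024 of 20086. The fit held 5 time means and a dye term over all slides, with 13 residual and 2.75 prior degrees of freedom. Control leaves were compared by the separate-channel fit after Aquantile normalisation (intraspot correlation 0.786) on the 14234 features measured on all slides. Benjamini-Hochberg adjustment ran over all features tested, with a threshold of 0.05. The number of slides limits the precision.

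Samples were grouped and paired by their titles. The replicate letter in the source label differs from that in the title for the control samples of slide b of 1 h and slide c of 12 h. UV and control samples of a slide deviated together from their group means (r from 0.659 to 0.923), as values read from the same spots may, and the fits pair them by slide. The lowest correlation of log ratios between slides was -0.68 on the median-centred scale and -0.47 after loess; the labels state the dyes, so the direction was kept. The fit was tested on simulated data.

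Named members are the 12 largest minima, 5 on each side of the limit, the 5 highest and lowest at 1 h and 4 h, the 5 smallest p in each direction of each test, the 5 brightest and the 5 dimmest. From the platform table, up to 12 informative names reaching the limit were added. Of its 1334 probes, 3 had several symbols. The members, lists and tests were chosen with earlier results of these data known. Alternatives are given below the report. EST sequences were not used here.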

Additional observations from a re-analysis of the deposited data

Results flagged for a closer look

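In groups of 4 slides, 56 sets of values were searched for 1 slide far from the others: the set's median at 1, 4, 8 and 12 h on both scales, and the 12 leading features at those times. The value of AI737126 on slide a of 12 h, -0.23 beside 1.47 to 1.63 on the other 3 slides, was the 1 that passed Dixon's critical value. The spot was dim on that slide, with a mean log2 intensity of 17.5 beside 19.9 to 20.3 on the other slides of 12 h, and its part in the value was not tested. Chance alone would mark about 5% of such sets.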

How the results depend on the processing

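Of 127 recomputed counts, medians and shares, 113 stayed within the range set for a stable value and 14 moved. That range was wide. Without slide b of 1 h the members' median of -0.12 and share above 0 of 30.0% counted as stable, beside 0.04 and 56.7%. With median-centred intensities in place of loess, limma called 2 members for 4 h minus 1 h and 13 for the dye difference, which on the slides of 1 h and 4 h alone, also chosen after seeing the data, had 0. The control comparison of 4 h with 1 h called between 1 and 37 members when slides of 1 h or 4 h were left out one at a time. Slide d of 2 h and slides b, c and d of 4 h were left out in another alternative chosen after seeing the data. There 4 h kept only slide a, with 58.0% of members above 0 on the median-centred scale and 25.3% after loess. In that setting AW224859, AW216063, AW216330 and AW066119 turned from lower to higher in control leaves, at 0.25, 0.49, 0.61 and 1.17. Counts of calls that rest on the lone slide of 4 h are not given. Over all features, limma called 814 at 4 h (1 higher, 813 lower) and 774 for 4 h minus 1 h on the median-centred scale, beside 0 in the report. The control comparison called 341 to 3775 features with 1 slide left out, beside 1950, and the dye difference 1408 median-centred, beside 4546. The rule kept 79 members with loess, 80 with loess and no background correction, and 79 with series matrix values. Without the replicate block, that is with the channels of a slide unpaired, the UV responses at 1 h and 4 h had 0 calls. Control leaves had 13 calls among the members, beside 1529 of the 14234 features. AI670542, AW216330 and BQ048066 then lost their calls, with limma adjusted p of 0.0615, 0.0753 and 0.0610. Of the values for single members, 73 lost their call under an alternative, 7 gained one and 3 reversed. The cause was not tested. A value without a call could change sign and still count as the same. AW224859 at 4 h did so, with 0.60 in the report and -0.35 on the median-centred scale. The calls at 1 h and 4 h numbered 0 for the members under each setting run, so they show no order of stability. Few slides, unequal spot brightness between slides and a trend of the ratio with brightness limit what these values can show.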

Other observations

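Spots of members could be dim on single slides outside the 4 that stood apart. AW400100 had a mean log2 intensity of 16.8 on slide d of 1 h, and of 15.5, 16.3 and 16.2 on slides a, b and c of 12 h, beside 20.4 to 21.8 on the other slides. Its log2(UV/control) on the median-centred scale was 1.54 on slide d of 1 h, beside -0.04, 1.00 and -0.63 on slides a, b and c. AI665618, AI667816, AI668344, AI677335 and AI677164 were dim on slide d of 1 h and slide a of 12 h too, with 15.6, 16.5, 17.5, 18.3 and 16.3 on the first and 14.1, 16.3, 17.6, 16.7 and 15.8 on the other. AI619118 had median-centred values of -0.59 and -0.95 with UV in Cy5 and of 0.58 and -0.08 with UV in Cy3 at 1 h. In control leaves, 734 of the 14234 features were more than 2 log2 units lower at 4 h than at 1 h and 223 were more than 2 higher, among them 6 and 0 members.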
